A study of Mus musculus with 36 samples.

Results

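Slc17a7, Neurod2, Neurod6, Tbr1 and Nrn1 are genes of the glutamatergic projection neurons of the cerebral cortex and hippocampus, and they were followed by their gene symbol in mouse brain expression arrays. The 5 genes are 5 of 30854 gene symbols on the array and are covered by 6 of its 45281 probes, since Neurod2 has 2. RNA came from 3 regions of adult male C57BL/6J mice, the hippocampus (HIP), the nucleus accumbens (NAc) and the medial part of the prefrontal cortex (PFC). The mice had 10 daily intraperitoneal injections of either vehicle (DMSO, PEG-400 and saline) or 1 of 3 drugs in it. The dose was 45 mg/kg for Cpd-60, 25 mg/kg for SAHA and 10 mg/kg for CI-994. Cpd-60 is an inhibitor of the histone deacetylases HDAC1 and HDAC2, SAHA is a hydroxamate that inhibits a wider set of histone deacetylases, and CI-994 is a benzamide inhibitor of class I histone deacetylases. Tissue was taken 1 h after the last dose. SAHA and CI-994 were given in a smaller volume than vehicle and Cpd-60. The mice carried no transgene, were bought at 10 weeks of age from 2 suppliers, and were kept for 1 week before use. A pool joined the RNA of 2 mice, a treatment had 3 pools, and every pool gave 1 array of each region, 36 arrays in all.

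Glutamatergic projection neurons release glutamate that a vesicular transporter has loaded into synaptic vesicles, and the neurons of cortex and hippocampus use mainly VGLUT1, the product of Slc17a7. The projection neurons of the NAc are GABAergic medium spiny neurons, and cortical axons that end in the NAc keep most of their mRNA in the cell bodies they come from. For that reason, transcripts of cortical projection neurons in a piece of ventral striatum can come from cortical tissue that borders it. Neurod2 and Neurod6 encode basic helix-loop-helix transcription factors that bind E-boxes (CANNTG) and are made in differentiating and mature projection neurons. Tbr1 encodes a T-box transcription factor of early-born, deep-layer cortical neurons. Nrn1 encodes neuritin, a small membrane-anchored protein that is induced by neuronal activity and promotes neurite growth.

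Promoter sequences are shown for the transporter gene and the 2 transcription factor genes that were measured above background, because Neurod2 binds E-boxes and is itself among the genes. Each run is the 250 bases before the gene's start in RefSeq's mouse assembly GRCm38.p6, 5′ to 3′ on the gene's own strand, with every CANNTG in capitals. CAGATG is one form of CANNTG. Both strands were searched.
Slc17a7, chr7:45163671-45163920, plus strand: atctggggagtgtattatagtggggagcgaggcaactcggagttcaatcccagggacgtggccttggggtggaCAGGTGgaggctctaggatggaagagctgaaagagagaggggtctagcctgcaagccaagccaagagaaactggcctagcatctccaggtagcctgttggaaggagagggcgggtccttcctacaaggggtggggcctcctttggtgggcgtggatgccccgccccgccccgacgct
Neurod2, chr11:98329646-98329895, minus strand: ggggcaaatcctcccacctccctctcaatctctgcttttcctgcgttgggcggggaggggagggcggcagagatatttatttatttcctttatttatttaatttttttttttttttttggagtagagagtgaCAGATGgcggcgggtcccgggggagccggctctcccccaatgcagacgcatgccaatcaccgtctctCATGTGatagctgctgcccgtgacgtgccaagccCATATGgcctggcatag
Tbr1, chr2:61804203-61804452, plus strand: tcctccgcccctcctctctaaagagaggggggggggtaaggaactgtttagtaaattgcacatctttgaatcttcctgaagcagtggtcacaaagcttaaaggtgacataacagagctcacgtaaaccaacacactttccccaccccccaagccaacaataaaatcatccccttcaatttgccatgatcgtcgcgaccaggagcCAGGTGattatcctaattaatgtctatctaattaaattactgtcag
Slc17a7 held 1 E-box, CAGGTG, which began 177 bases before the start. Tbr1 also held 1 CAGGTG, at 46 bases. Neurod2 held 3, namely CAGATG at 118, CATGTG at 51 and CATATG at 17 bases before the start. Of 27025 mouse promoters of the same length, 66.0% held at least 1 CANNTG, 12.1% held at least 3, and 14.5% held CAGATG. The T-box sequence GGTGTGA, which 3.31% of promoters hold, was in none of the 3 windows. The GC content was 61.2% for Slc17a7, 52.8% for Neurod2 and 45.2% for Tbr1, beside a median of 52.0% over all promoters. Nrn1 was not listed in the promoter table used here.

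Values below are log2 of the quantile-normalized intensity, and raw intensities are the scanner's values without background subtraction. Array-wide median raw intensity was between 82.2 and 108.3, the share of probes detected (detection p at or under 0.01) was between 31.9% and 43.3%, and arrays of the same group correlated at r between 0.965 and 0.995. Slc17a7 and Nrn1 were detected on 36 of 36 arrays. Neurod2 and Tbr1 were each detected on 32 arrays, and the 4 arrays without detection were NAc arrays of treated pools for both genes, namely CI-994 pools 2 and 3 and SAHA pool 2 for both, with Cpd-60 pool 3 for Neurod2 and Cpd-60 pool 2 for Tbr1. Neurod6 was detected on 0 of 36 arrays. Its raw intensity lay between 79.2 and 107.2 in every region, so it was not well above background anywhere, was not tested, and is given no fold change. Under vehicle it measured 6.51, 6.44 and 6.51 in PFC pools, 6.54, 6.59 and 6.70 in HIP pools, and 6.42, 6.43 and 6.51 in NAc pools. Neurod6 can therefore not be counted for or against the label, and the following results rest on 4 genes with 5 probes.

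Under vehicle, the 4 measured genes were 5.04- to 10.6-fold lower in the NAc than in the PFC. In tissue that holds many cell types, fewer cells of a type and less RNA per cell cannot be told apart. Slc17a7 measured 11.61, 11.59 and 11.10 in the 3 PFC pools and 11.20, 10.86 and 10.75 in the HIP pools, but 8.12, 8.29 and 7.66 in the NAc pools. Nrn1 measured 11.39, 11.53 and 11.31 in PFC pools, 11.49, 11.58 and 11.57 in HIP pools, and 7.99, 8.45 and 7.62 in NAc pools. For both genes every NAc pool was lower than every PFC and HIP pool, while PFC and HIP pools overlapped. Neurod2 measured 10.44, 10.45 and 9.97 in HIP pools, 9.74, 9.57 and 9.38 in PFC pools, and 6.90, 6.96 and 6.83 in NAc pools. Tbr1 measured 9.28, 9.29 and 9.15 in PFC pools, 7.64, 7.72 and 7.61 in HIP pools, and 6.94, 6.95 and 6.84 in NAc pools. The 2 transcription factor genes separated all 3 regions without overlap, in a different order: Neurod2 was highest in the HIP and Tbr1 in the PFC.

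**Figure D1:**
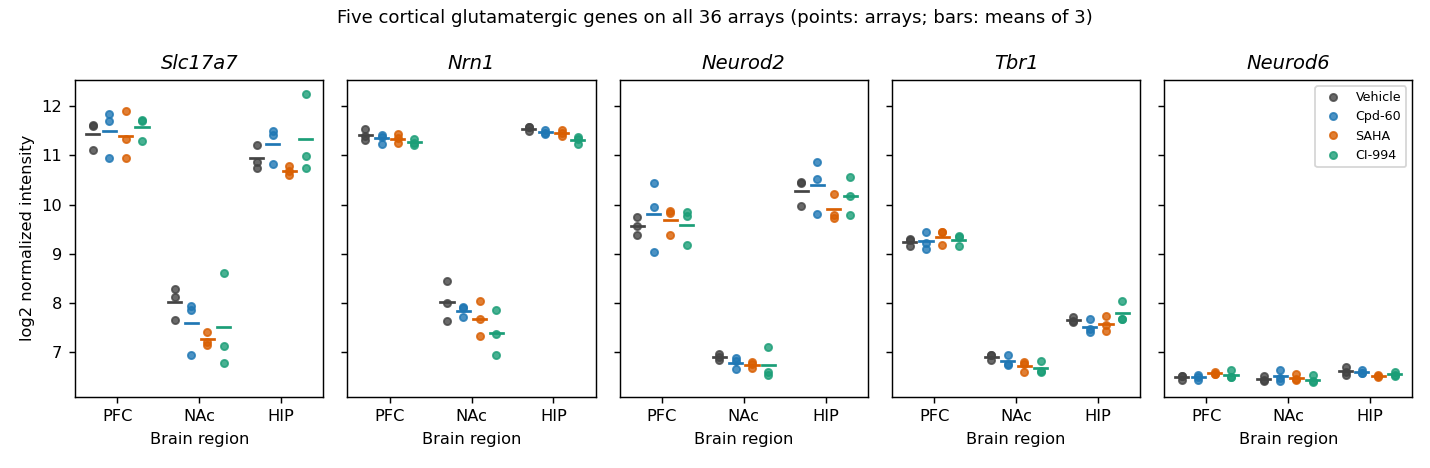
Log2 normalized intensity of the 5 genes (1 panel each) on all 36 arrays, by brain region on the x axis and by treatment in colour. Points are arrays and short bars are means of 3. Slc17a7, Nrn1 and Neurod2 sat high in the PFC and HIP and low in the NAc, Tbr1 was high in the PFC only, and Neurod6 stayed near background between 6.39 and 6.70.

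Between the NAc and PFC, Slc17a7 fell by 3.41 ± 0.19 (SE of the fit, n = 3 pools a region) on the log2 scale, which is 10.6-fold (limma, adjusted p = 1.40e-06). Nrn1 was lower in the NAc by 10.5-fold (log2 difference -3.39 ± 0.17, adjusted p = 6.57e-07). Neurod2 was lower by 6.35-fold (-2.67 ± 0.13, adjusted p = 6.57e-07), and Tbr1 by 5.04-fold (-2.33 ± 0.07, adjusted p = 2.46e-08). All 4 genes tested were called lower in the NAc, while 11.2% of all 22606 probes tested were. Ordered by the difference, Slc17a7, Nrn1, Neurod2 and Tbr1 stood at places 4, 5, 11 and 16 from the lowest of the 22606 probes. The dimmer probe of Neurod2 gave the same direction with a smaller size (-0.46, adjusted p = 0.00653), and its raw intensity in the vehicle pools was between 126.5 and 146 in the PFC. For transcripts this close to background a log2 difference without background subtraction understates the fold. After background correction by neqc the differences of the 4 genes reached between -3.59 and -3.98.

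Between the NAc and HIP the order of the genes changed. Nrn1 was 11.5-fold lower in the NAc (-3.52 ± 0.17, adjusted p = 4.77e-07), Neurod2 10.5-fold (-3.39 ± 0.13, adjusted p = 1.74e-07), and Slc17a7 7.54-fold (-2.91 ± 0.19, adjusted p = 3.60e-06). Tbr1, the deep-layer cortical factor, was only 1.68-fold lower (-0.75 ± 0.07, adjusted p = 3.19e-05). All 4 were called lower in the NAc, beside 8.27% of probes. Nrn1, Neurod2 and Slc17a7 stood at places 3, 4 and 7 from the lowest difference, and Tbr1 at place 482. These sizes and places are without background subtraction. After neqc background correction Neurod2 had the lowest difference of the 4 genes (-4.76), Nrn1 was at -4.01 and Tbr1 at -1.51.

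Between the HIP and PFC, the 2 transcription factor genes went opposite ways. Tbr1 was 3.00-fold lower in the HIP (-1.58 ± 0.07, adjusted p = 5.38e-07). Neurod2 was 1.65-fold higher there (0.72 ± 0.13, adjusted p = 0.00342), and its other probe gave 0.91 (adjusted p = 0.000160). Without vehicle pool 2 the Neurod2 difference was 0.64 and was not called (adjusted p = 0.107). Nrn1 differed by 0.13 ± 0.17 (adjusted p = 0.590). Slc17a7 differed by -0.50 ± 0.19 and did not pass the threshold when the pools were taken as independent (adjusted p = 0.0773). With the replicate block, which uses that the same mice gave both regions, Slc17a7 was called lower in the HIP (adjusted p = 0.0119), and it was also called without vehicle pool 3 (-0.57, adjusted p = 0.000522) and over all 36 arrays with treatment as a term (-0.43, adjusted p = 0.0447). Of the 4 genes, 2 were called in this comparison, beside 27.3% of probes in either direction.

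**Figure D2:**
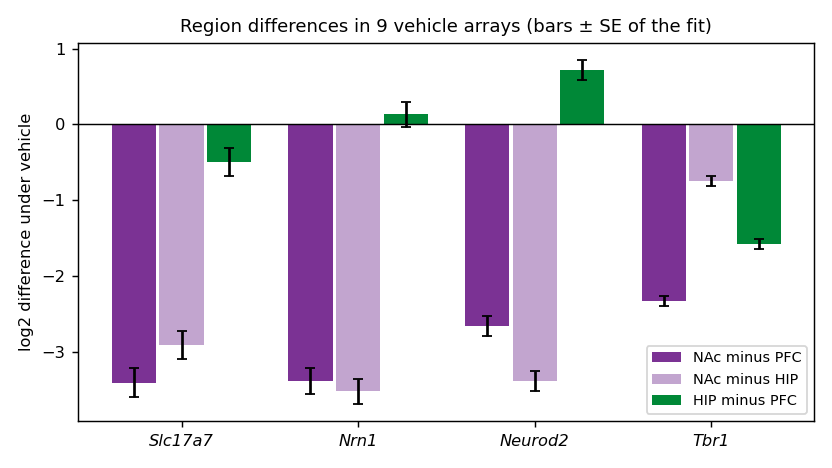
Log2 differences between regions under vehicle for the 4 measured genes, with a bar for each of 3 contrasts and the SE of the fit as error bars (3 pools a region). The NAc bars are negative for every gene, and in the contrast of HIP with PFC the bar of Tbr1 (-1.58) and that of Neurod2 (0.72) point opposite ways.

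The regions matched their labels by the markers of other neurons. Of 14 markers of striatal medium spiny neurons, 12 were tested, and 12 of 12 were higher in the NAc than in the PFC and than in the HIP (median differences 2.90 and 3.26). Among them were Rgs9, which speeds the end of G protein signals, at 3.96 over the PFC, Ppp1r1b (DARPP-32, an inhibitor of protein phosphatase 1) at 3.85 and Drd1 (a dopamine receptor, listed as Drd1a) at 3.44. Of 7 markers of hippocampal fields tested, 6 were higher in the HIP than in the PFC. Of all probes, 9.59% were called higher in the NAc than in the PFC and 9.6% than in the HIP. In the HIP, 13.4% were called higher than in the PFC.

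Most other genes of cortical glutamatergic neurons were lower in the NAc too. Of 16 listed, 14 were tested, 10 were lower in the NAc than in the PFC and 1 was higher, with a median difference of -0.65 beside -0.0043 over all probes. Fezf2, a factor of subcortical projection neurons, was lower by 2.69 on the log2 scale (difference -2.69, adjusted p = 1.70e-08). Mef2c (-1.74), a factor of activity-dependent transcription, Dkk3 (-1.67), a secreted protein of the Dickkopf family, and Cux2 (-1.13), a factor of upper cortical layers, followed. Tle4, a corepressor of deep cortical layers that is also made in striatum, was higher in the NAc (1.28, adjusted p = 0.000213). Against the HIP, 6 of the 14 were lower in the NAc and 3 were higher, namely Lamp5 (listed as 6330527O06Rik, 1.41), Tle4 (0.92) and Mef2c (0.37). In the HIP against the PFC, 6 were lower and 3 higher, with Lamp5 (-2.40) and Mef2c (-2.11) at one end and Nptx1 (0.95), a secreted pentraxin of excitatory synapses, at the other. Of all probes, 11.2%, 8.27% and 13.9% were called lower in these 3 contrasts in turn, and 9.59%, 9.6% and 13.4% higher.

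Relatives and partners of the 4 genes split between regions. Of 17 listed, 12 were tested, and in the NAc against the PFC 4 were lower and 2 higher, beside 11.2% and 9.59% of all probes. Slc17a8, which encodes the third vesicular glutamate transporter, was higher in the NAc than in the PFC (0.84, adjusted p = 7.21e-05) and HIP (0.79, adjusted p = 0.000106), opposite to Slc17a7. Slc17a6, the transporter gene of subcortical neurons, was not called in the NAc against the PFC (-0.87, adjusted p = 0.0501). Nrn1l, the paralog of Nrn1, was likewise higher in the NAc than in the PFC (0.54, adjusted p = 0.0121) and HIP (0.65, adjusted p = 0.00505). Fezf2 stands in both lists. Cask, a scaffold protein that binds Tbr1, was lower by 0.22 (difference -0.22, adjusted p = 0.0432).

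The PFC and NAc of a pool came from the same mice, so the NAc level was also expressed as a percentage of the PFC level of that pool after background correction. These percentages have no test. In the vehicle pools Slc17a7 was at 6.15%, 7.41% and 5.21% (6.26% ± 1.10, SD, n = 3). Tbr1 was at 5.78%, 5.98% and 4.67% (5.48% ± 0.70), and Neurod2 at 3.62%, 4.87% and 3.86% (4.12% ± 0.66). Nrn1 was at 6.27%, 8.99% and 4.31% (6.52% ± 2.35). The 4 genes thus lay between 4.12% and 6.52% on average, and pool 2 was the highest of the 3 for each. Without background correction the means were higher, at 9.42% for Slc17a7 and 19.8% for Tbr1 on quantile-normalized intensities. How much of the NAc level was cortex carried over in dissection was not tested.

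In most treated pools the percentages of Slc17a7, Neurod2 and Tbr1 were under those of vehicle. Slc17a7 was at 4.28%, 4.39% and 1.65% under Cpd-60 and at 4.11%, 2.27% and 1.35% under SAHA. Under CI-994 it was at 12.3% in pool 1 but 1.46% and 0.535% in pools 2 and 3. In CI-994 pool 1 Neurod2 was also high, at 9.38%, against 0.822% and 0.571% in the other two pools, which were not detected, while Tbr1 (4.46%) was within the range of the treated pools. The following counts have no share over all probes beside them, so they cannot be read as a change under the drugs. Slc17a7, Neurod2 and Tbr1 also rose and fell together across NAc pools, so their counts are not independent. Of 9 treated pools, 8 lay under the lowest vehicle pool for Slc17a7, 8 for Neurod2, 8 for Tbr1 and 3 for Nrn1. The pool that did not was CI-994 pool 1 for Slc17a7 and Neurod2 and Cpd-60 pool 1 (5.17%) for Tbr1. A percentage also falls where the PFC level is high. Background-corrected NAc levels of Slc17a7 in Cpd-60 pools 1 and 2 (154 and 141) were within the vehicle range, 110 to 222. Their PFC levels (3593 and 3216) were above the vehicle range, 2108 to 3043. Likewise Neurod2 in Cpd-60 pool 1 had 25.9 in the NAc (vehicle 22.2 to 32.5) and 900 in the PFC (vehicle at most 764). The other counted pools of both genes were under vehicle in the NAc too. For Neurod2 and Tbr1, 4 of the 9 treated pools were not detected in the NAc, so their percentages are at background, and the count for these genes rests partly on values that have no order. Vehicle and Cpd-60 had 2 of 3 pools on the first NAc BeadChip and SAHA and CI-994 had 1 of 3, which bears on these counts as described next.

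**Figure D3:**
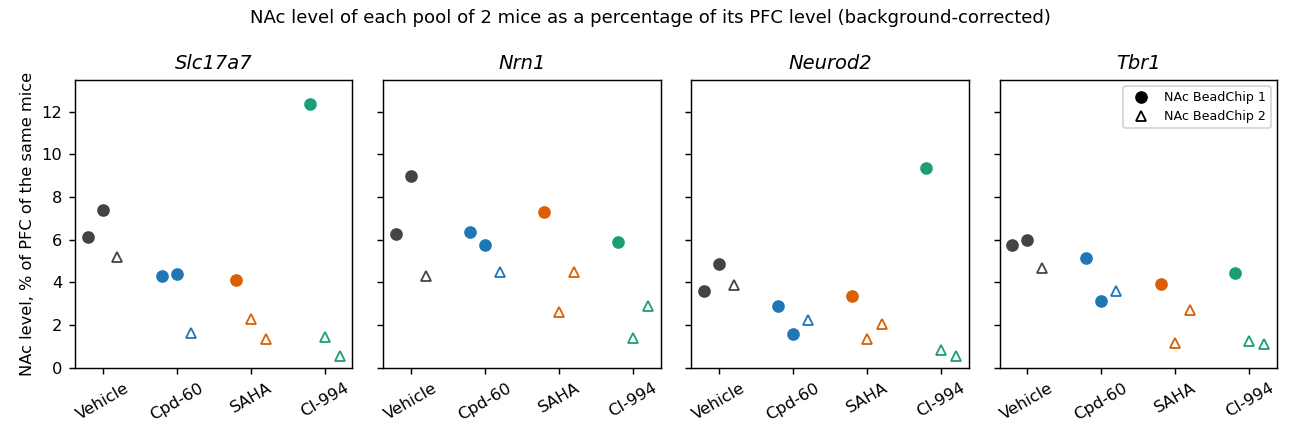
NAc level as a percentage of the PFC level of the same 2 mice, after background correction, for 4 genes (panels) by treatment (x axis). Each symbol is a pool, filled circles on NAc BeadChip 1 and open triangles on BeadChip 2. Vehicle pools of Slc17a7 lie between 5.21% and 7.41%, and CI-994 pool 1 at 12.3% stands above every other pool.

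The NAc arrays of a treatment were spread over 2 BeadChips, the glass slides that carry 6 arrays each, and the 4 genes moved with the BeadChip. Vehicle and Cpd-60 pools 1 and 2 and pool 1 of SAHA and CI-994 were on the first, and the other pools on the second. Each of the 4 genes was higher on the first BeadChip in 4 of 4 treatments, by 0.85 for Slc17a7, 0.50 for Nrn1, 0.22 for Neurod2 and 0.13 for Tbr1 on average (log2). Of all probes in the NAc, 21.7% were higher on the first in all 4 treatments and 16.6% were lower. None of the 4 genes did so in the PFC (6.09% of probes) or in the HIP (10.4%), where the 2 BeadChips held the same pools. Means over marker lists moved too in the NAc: that of inhibitory neurons was lower on the first BeadChip in 4 of 4 treatments, by 0.29 (difference -0.29), and that of oligodendrocytes in 3 of 4 (-0.25), while those of the other cortical genes (0.01) and of striatal neurons (0.10) differed less. Since a BeadChip also holds particular mice, slide and mice cannot be told apart.

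Slc17a7 varied more between NAc pools than nearly all transcripts. Over the 12 NAc arrays its SD was 0.580, at place 230 from the highest of 23242 probes, and that of Nrn1 was 0.390. Neurod2 (0.160) and Tbr1 (0.130) were near the median of all probes, 0.120. Both are close to background in the NAc, where log2 intensity without background subtraction understates a spread. After background correction the NAc arrays ran from 4.73 to 45.4 for Neurod2 and from 6.33 to 31.9 for Tbr1 on the linear scale. The spread of Slc17a7 was not limited to the NAc. Its SD was 0.473 in the HIP and 0.337 in the PFC, and Neurod2 had 0.379 in the HIP and 0.380 in the PFC, which put both genes among the 0.816% of probes with the largest SD in each of these regions. In the HIP, CI-994 pool 2 stood out, with Slc17a7 at 12.24 (raw intensity 6127.1) against 10.74 to 10.99 in the other pools of that treatment.

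Across the 12 NAc arrays 5 of the 6 pairs of measured genes were positively related by Pearson's r, and 3 of these 5 also passed by rank. Over 20 relations computed among the 5 genes and with the means of 2 marker lists, 5 passed Benjamini-Hochberg adjustment of a two-sided permutation p, and all 5 were positive relations between measured members. Slc17a7 and Neurod2 were the closest (Pearson r = 0.95, adjusted permutation p = 0.0004, Spearman rho = 0.98, adjusted permutation p = 0.0004). Without the 2 arrays farthest from the median, CI-994 pools 1 and 3, r was 0.91, within the 2 BeadChips it was 0.93 and 0.85, and after subtracting treatment means it was 0.96. This relation thus held within each BeadChip (unadjusted exact permutation p = 0.0069 and 0.035, 6 arrays each).

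For the other relations, r within a BeadChip rests on 6 arrays, and whether it differed between the BeadChips was not tested. Tbr1 and Nrn1 gave r = 0.83 (adjusted permutation p = 0.0055, rho = 0.71, adjusted permutation p = 0.0614), with 0.46 and 0.77 within BeadChips, and r = 0.78 without CI-994 pool 3 and vehicle pool 2. Neurod2 and Tbr1 gave r = 0.79 (adjusted permutation p = 0.0149, rho = 0.84, adjusted permutation p = 0.0131), with 0.25 and 0.85 within BeadChips and 0.91 without the 2 farthest. Slc17a7 and Tbr1 gave r = 0.75 (adjusted permutation p = 0.0297, rho = 0.76, adjusted permutation p = 0.0393), with 0.33 and 0.60, and 0.80 without the 2 farthest. Neurod2 and Nrn1 gave r = 0.73 (adjusted permutation p = 0.0297, rho = 0.69, adjusted permutation p = 0.0670), with 0.01 and 0.62, and 0.87 without the 2 farthest. On the first BeadChip, of 6 arrays, these 4 relations were thus weak to moderate, with unadjusted exact permutation p between 0.41 and 0.98. On the second BeadChip this p was 0.036 for Neurod2 and Tbr1 and between 0.065 and 0.21 for the others. Slc17a7 and Nrn1 did not pass (r = 0.66, adjusted permutation p = 0.0565, rho = 0.66, adjusted permutation p = 0.0722). This pair lay near the threshold. After subtracting treatment means it passed (r = 0.68, adjusted permutation p = 0.0478), and after neqc it did not (r = 0.64, adjusted permutation p = 0.0534).

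**Figure D4:**
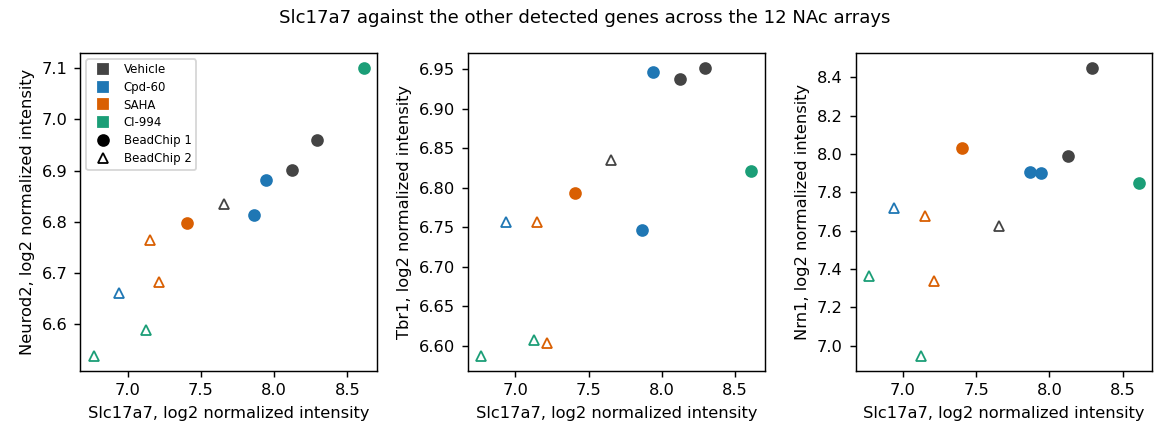
Log2 normalized intensity of Neurod2, Tbr1 and Nrn1 (y axes) against that of Slc17a7 (x axes) on the 12 NAc arrays, coloured by treatment, with filled circles for BeadChip 1 and open triangles for BeadChip 2. The points of Neurod2 lie close to a line (r = 0.95), and those of Tbr1 (0.75) and Nrn1 (0.66) scatter more.

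The mean of 11 other cortical genes did not follow Slc17a7 in this processing (r = 0.45, rho = 0.50, adjusted permutation p = 0.322 and 0.180), while after neqc background correction it did (r = 0.78, adjusted permutation p = 0.0149). Neurod2 likewise gave 0.38 (adjusted permutation p = 0.370) and, after neqc, 0.69 (adjusted permutation p = 0.0382). The mean of 12 striatal genes gave r = 0.61 with Slc17a7 (rho = 0.62, adjusted permutation p = 0.104 and 0.0976), and did not pass.

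The pairing of Slc17a7 with Neurod2 also held outside the NAc, in regions where both are high. This comparison was added after the NAc values were seen and holds 12 relations. In the PFC, Slc17a7 gave r = 0.75 with Neurod2 (adjusted permutation p = 0.0219, rho = 0.73, adjusted permutation p = 0.0264) and 0.76 with Tbr1 (adjusted permutation p = 0.0219, rho = 0.81, adjusted permutation p = 0.0133). Without the 2 arrays farthest from the median these were 0.61 and 0.64, and within BeadChips they were 0.70 and 0.84 for Neurod2 and 0.75 and 0.82 for Tbr1. In the HIP, Slc17a7 and Neurod2 gave r = 0.76 (adjusted permutation p = 0.0219, rho = 0.92, adjusted permutation p = 0.0006), with 0.81 without the 2 farthest and 0.80 and 0.97 within BeadChips. Neurod2 and Tbr1 in the PFC passed by rank (rho = 0.77, adjusted permutation p = 0.0190) and not by Pearson's r (0.61, adjusted permutation p = 0.108). Nrn1, in contrast, gave r between -0.23 and 0.21 with the other 3 genes in the PFC and HIP, none of which passed.

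Candidates for likeness were probes detected on all PFC arrays, so transcripts found only in the NAc or HIP were left out. By the pattern over all 36 arrays, which mostly reflects region, the genes most like Slc17a7 among 9597 candidates were Cck (r = 0.98), a neuropeptide gene, Enc1 (0.98), an actin-binding protein of neurons, and Nfix (0.98), a nuclear factor. Those most like Neurod2 were Fhl2, Zfp238 and Olfm1, at r = 0.98, 0.98 and 0.97. Tbr1 was most like Golga7b, Cpne9 and 3110047P20Rik (each 0.98), and Nrn1 was most like Chst8 (0.99), Cck (0.98) and Bdnf (0.98), a neurotrophin gene. Cpne9, for example, had medians of 9.48 (PFC), 8.06 (HIP) and 6.98 (NAc), the same order as Tbr1. Neurod6, at background, reached no more than 0.61 with any candidate (Aof2, then Wscd1 and Epha7). Over the 12 NAc arrays with treatment means subtracted, the gene most like Slc17a7 was Neurod2 (r = 0.96, place 1 of 9596), followed by Rab3gap2 (0.96), Extl1, LOC100047260 (0.95 each) and Rasal1 (0.94). Tbr1 was at place 814 and Nrn1 at place 1466. These places are among candidates chosen by detection in the PFC, not among all NAc transcripts. Neurod2 was itself detected on 8 of the 12 NAc arrays. Rab3gap2 had nearly equal medians in the NAc (8.25) and PFC (8.23), so the list of genes that moved with Slc17a7 between NAc pools also held a transcript that was not lower in the NAc.

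No drug changed any of the 4 genes past an adjusted p of 0.05 in any region. Over 9 comparisons of a drug with vehicle, 0 of 36 tests of the 4 genes and 0% of 206019 tests in all were called by limma. At an unadjusted p under 0.05, 4 of the 36 were past, and 1 of these was also at least 1.2-fold. Of all probes, between 1.99% and 9.37% a comparison were past an unadjusted 0.05, and 2318 of 206019 tests were past both limits. By the methods' test (Tukey's HSD) 1 of 36 was past 0.05. Between 143 (of 23242) and 618 (of 23275) probes a comparison were past it too. After adjustment over probes 0 of the 36 were. The 3 drugs were compared with the same vehicle pools, so their differences share the vehicle values. Their doses differed, and they are given side by side and not compared with each other. With 3 pools against 3, an exact permutation test cannot give a p below 0.1.

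In the NAc, the 4 genes had lower means than vehicle under each of the 3 drugs, 12 of 12 differences in all, between -0.77 and -0.09. Of all probes in the NAc, 25.4% had lower means under all 3 drugs. In the PFC 4 of 12 differences were negative and in the HIP 8 of 12. With the BeadChip as a block 12 of 12 NAc differences were still negative, between -0.48 and -0.08. The share of all probes was not computed with this block.

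Under SAHA in the NAc, Slc17a7 measured 7.41, 7.22 and 7.15, each under the lowest vehicle pool (7.66). Tbr1 measured 6.79, 6.60 and 6.76 against 6.84 for the lowest vehicle pool, and Neurod2 measured 6.80, 6.68 and 6.76 against 6.83. Treated and vehicle pools did not overlap for 3 of the 4 genes, while 7.11% of probes did not overlap in this comparison. The differences were -0.77 ± 0.42 for Slc17a7, -0.19 ± 0.09 for Tbr1 and -0.15 ± 0.13 for Neurod2 (SE of the fit, limma adjusted p = 0.9998 for each), with Nrn1 at -0.34 ± 0.26. Within the BeadChips Slc17a7 differed by -0.80 and -0.47. The sizes depended on the processing. With the BeadChip as a block they were -0.48 for Slc17a7, -0.15 for Tbr1 and -0.08 for Neurod2, and after neqc background correction -1.25, -0.57 and -0.45, with none called. The other probe of Neurod2 overlapped. The mean of 12 striatal markers lay between 9.85 and 10.27 in the SAHA pools and between 10.20 and 10.47 in the vehicle pools, and 11 of these 12 genes had lower means under SAHA, with a median of -0.28. The mean of the 11 other cortical genes was between 8.21 and 8.31, against 8.25 to 8.34. The part of these lists in the SAHA values was not tested.

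Under CI-994 in the NAc, Nrn1 measured 7.85, 6.94 and 7.36 and overlapped vehicle. Its difference of -0.64 ± 0.26 (limma adjusted p = 0.9999) was the only one of the 36 past the unadjusted threshold and 1.2-fold (0 of 36 without vehicle pool 1, vehicle pool 2 or CI-994 pool 2, and 5 without CI-994 pool 1), as were 0.383% of probes in this comparison, and within BeadChips it was -0.37 and -0.47. Tbr1 measured 6.82, 6.61 and 6.59 and did not overlap vehicle (-0.24 ± 0.09), which held for 7.61% of probes. Slc17a7 measured 8.61, 7.13 and 6.77, with 1 pool above and 2 below every vehicle pool (-0.52 ± 0.42). Neurod2 followed the same pattern, with 7.10, 6.59 and 6.54 (-0.16 ± 0.13). The high pool was the one on the first BeadChip. Within the BeadChips Slc17a7 differed by 0.40 and -0.71 and Neurod2 by 0.17 and -0.27. A BeadChip block put Slc17a7 at -0.24 and Neurod2 at -0.08. After neqc, Nrn1 differed by -1.06 and Tbr1 by -0.72, and neither was called at an adjusted p of 0.05.

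Under CI-994 in the HIP, Nrn1 measured 11.23, 11.37 and 11.33, each under the lowest vehicle pool (11.49), and 9.58% of probes did not overlap there. The difference was -0.23 ± 0.06 (limma adjusted p = 0.9998), under 1.2-fold, and -0.30 and -0.22 within BeadChips. No other member stood apart from vehicle in the PFC or HIP. The remaining differences there were between -0.38 (Neurod2, SAHA, HIP) and 0.38 (Slc17a7, CI-994, HIP).

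**Figure D5:**
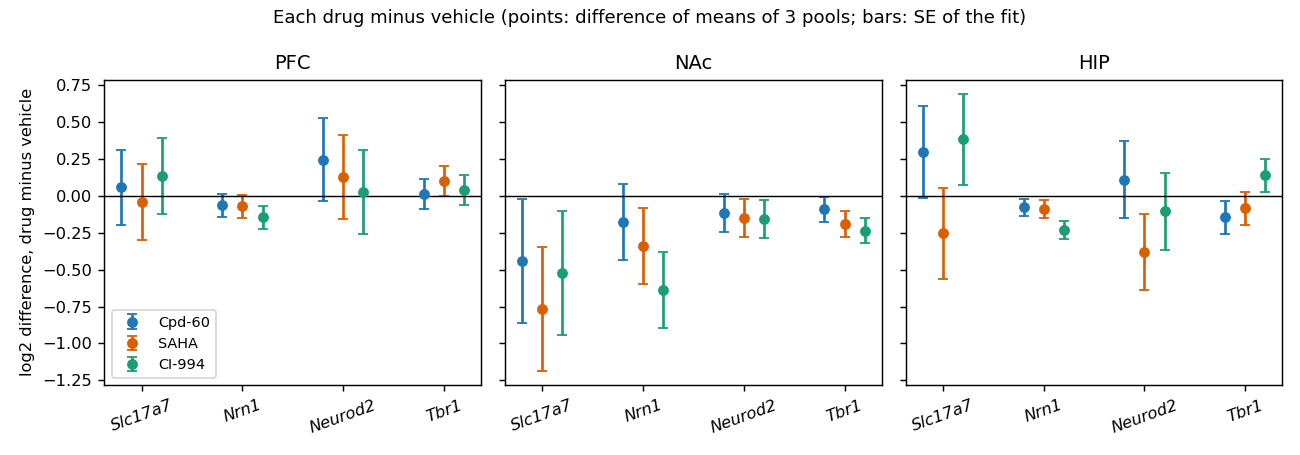
Log2 difference of each drug from vehicle for the 4 measured genes in the PFC, NAc and HIP (panels), with the SE of the fit as error bars (3 pools a group). All 12 NAc points lie under 0 and the PFC and HIP points lie on both sides, and 0 of the 36 were called at an adjusted p of 0.05.

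Whether a drug's difference was particular to the NAc was tested by setting it against the mean difference in the PFC and HIP. Of the 4 genes under 3 drugs 0 were called, and 0% of 58341 tests were. At an unadjusted p under 0.05, 360 to 653 of 19447 probes were past for each drug, and of the 12 member values 2 were, Tbr1 (-0.33 ± 0.13) and Nrn1 (-0.45 ± 0.21) under CI-994 (limma adjusted p = 0.9999 for both). For Slc17a7 the NAc difference was lower than in the other regions by 0.62 under Cpd-60 and SAHA (-0.62 ± 0.46 each) and by 0.78 under CI-994 (-0.78 ± 0.46). The 12 values were all negative, the smallest in size being -0.02 (Neurod2, SAHA), and 3 of them changed sign when a single pool was left out. They share the vehicle arrays and come from related genes, so their signs are not independent. The share of all probes negative under all 3 drugs was not computed for this contrast. The NAc was chosen for it with earlier results of these data known.

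Other genes of cortical glutamatergic neurons gave no call at an adjusted p of 0.05 under any drug. Past the unadjusted threshold and 1.2-fold, Etv1, a factor of layer 5 neurons, was lower under Cpd-60 in the NAc (-0.35, adjusted p = 0.999), and it was the single one of that list over 9 comparisons. In that comparison 1.78% of all probes were past both limits. In the NAc, Mef2c and Fezf2 were past the unadjusted limma threshold alone, under 1.2-fold. Mef2c was lower under Cpd-60 (-0.21) and CI-994 (-0.23), and Fezf2 under Cpd-60 (-0.21) and SAHA (-0.18). The authors list Mef2c as lower in the NAc under Cpd-60 by their own test. The medians of this list in the NAc were -0.055 under Cpd-60, -0.046 under SAHA and -0.067 under CI-994, beside medians of all probes between -0.0040 and 0.00014. Of the relatives and partners, Bcl11a, a zinc-finger factor of deep-layer neurons, was past both limits under SAHA in the HIP (0.34, adjusted p = 0.502), as were 3.17% of all probes there.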

How the data were processed

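Illumina MouseWG-6 arrays were run on RNA pooled from 2 mice, with 3 pools for each of 4 treatments and 3 regions, 36 arrays in all. The authors deposited raw intensity for 45281 probes, on a linear scale with neither background subtraction nor normalization, and a detection p-value for each probe. The authors' own analysis used GeneSpring with quantile normalization; the scanner software and its settings are not given in the sources used here. The number of arrays limits precision.

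All 36 arrays were quantile normalized together, floored at 1 and log2 transformed (R 4.3.3, limma 3.58.1). A probe was tested if some group had a detection p at or under 0.2 on each of its 3 arrays. Tests were limma's moderated linear fits, with Benjamini-Hochberg adjustment over all such probes at 0.05. A second rule was an unadjusted limma p under 0.05 and 1.2-fold, the fold being that of the methods, which use another test. "The methods' test" is Tukey's HSD over the 4 treatments of a region, whose p already allows for the several groups. The methods ran a one-way ANOVA before it and had no CI-994 group. "Detected" means a detection p of at most 0.01. Percentages of PFC and alternatives used neqc (offset 16). Relations across arrays used 100000 resamples. Of the procedures, only the limma fit was tested on simulated data, for 1 contrast between regions and 1 contrast with vehicle in the NAc. The alternatives were neqc, other detection filters, normalization without CI-994, all arrays in 1 fit, blocks for BeadChip and replicate number, the other probe of Neurod2 and each pool left out in turn.

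The members and the gene lists, written from general knowledge, were chosen with earlier results of these data known. All members are named on every vehicle array. Neurod2 is given by its probe of highest mean intensity. Under a drug, members are given array by array where they pass a call rule or do not overlap vehicle, and CI-994 values of Slc17a7 and Neurod2, chosen after they were seen. Also named are the 3 genes most like each member, the 5 most like Slc17a7 in the NAc, and list genes that passed, up to 4 where more did, with Slc17a6 and some others of the lists named after their values were seen. Some genes of the lists are counted but not reported here by name.

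Replicate numbers pair the regions by design, since the same mice gave all 3. Their deviations from group means correlated at r between -0.462 and 0.562 (median -0.018, 36 pairs). Across treatments a number joins different mice. Titles name mice 3 and 4 for Cpd-60 replicate 2, and were used, while the description repeats the mice of replicate 1. Nothing was done about the slide in the main fits.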

Additional observations from a re-analysis of the deposited data

How the results depend on the processing

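The 4 genes stayed lower in the NAc than in the PFC and HIP under every alternative run, with adjusted p of at most 0.00822. Of the 4, 2 were called between HIP and PFC, and 1 to 3 with a pool left out (1 without vehicle replicate 2, which lost Neurod2). The 1 member past an unadjusted p and 1.2-fold became 3 with neqc, 3 with the replicate block, 0 by the methods' test, and 0 to 5 with a pool left out: 0 without vehicle replicate 1, vehicle replicate 2 or CI-994 replicate 2, 2 without vehicle replicate 3 or Cpd-60 replicate 3, and 5 without CI-994 replicate 1. Adjusted calls of members stayed at 0 in all of these. Across treatments the replicate number joins different mice, r was above 0.1 in 32 of 54 pairs, and arrays correlated best with their own number in 20 of 36 cases in the NAc, 10 in the PFC and 21 in the HIP. In each region all pools numbered 1 were on the first BeadChip and all numbered 3 on the second, so number and slide overlap. The part of the slide in these correlations was not tested. The replicate block gave 1 adjusted call among all probes, in the HIP under SAHA. Among all probes in the NAc, the count past both limits under Cpd-60, SAHA and CI-994 was 414, 127 and 89, with the BeadChip block 606, 195 and 182, with the replicate block 542, 345 and 215, and with neqc 1107, 528 and 483. In the PFC these were 246, 48 and 145, with the BeadChip block 253, 28 and 199, with the replicate block 255, 84 and 156, and with neqc 1209, 658 and 924. In the HIP they were 355, 738 and 156, with the BeadChip block 402, 499 and 135, with the replicate block 433, 1176 and 223, and with neqc 1116, 2259 and 747. NAc levels as a percentage of PFC without background correction, on raw and on quantile-normalized intensity, were 10.6 and 9.42 for Slc17a7, 18.2 and 15.8 for Neurod2, 22.9 and 19.8 for Tbr1, and 10.7 and 9.69 for Nrn1. With a pool left out, the background-corrected means ranged from 5.68 to 6.78, 3.74 to 4.37, 5.22 to 5.88 and 5.29 to 7.63 for these genes in turn. With a pool left out, the difference in the NAc against the other regions ranged from -0.288 to 0.0678 for Nrn1 under Cpd-60 (positive without vehicle replicate 2), from -0.104 to 0.0692 for Neurod2 under SAHA (positive without vehicle replicate 3, and 0.0216 without SAHA replicate 2) and from -0.404 to 0.0981 for Neurod2 under CI-994 (positive without CI-994 replicate 2). Relations turned negative after subtracting treatment means for Tbr1 and Nrn1 with the other cortical genes (-0.0191 and -0.0491) and for Nrn1 with the striatal genes (-0.0142). Over the PFC arrays, Nrn1 gave -0.0202 with Slc17a7 and -0.0266 with Tbr1, and over the HIP arrays -0.120 and -0.234, an alternative chosen after seeing the data. The cause of these changes was not tested. Levels near background, as for Neurod2 and Tbr1 in the NAc, limit every NAc value.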
